A study of Mus musculus with 6 samples.

Results

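The gut peptide hormones are small secreted peptides that cells of the stomach and intestine release in response to food, and 9 of their precursor genes are described here as measured in medullary thymic epithelial cells (mTECs). The genes were Cck, Gast, Ghrl, Pyy, Sct, Gip, Nts, Guca2a and Guca2b, chosen by name, and every probe of the authors' matrix carrying one of these symbols was taken. All 9 genes were found, through 12 of the 41174 probes. Of these genes 6 had 1 probe each, and Cck, Ghrl and Pyy had 2 each. The mTECs were sorted from the thymus of Mbd1 wild type (WT) and Mbd1 knockout (KO) mice 30 days old, as live cells positive for EpCAM and MHC class II and negative for CD45, CD11c and Ly51. The knockout's construction, the strain and the number of animals behind a sample were not given in the sources used here, and the authors removed 1 replicate of each genotype after quality control. Amplified RNA, labelled with Cy3, was hybridised to Agilent mouse arrays, and each group is represented by 3 matrix columns, WT_1 to WT_3 and KO_1 to KO_3. Nothing in the labels says whether the replicates were single animals or pools.

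mTECs transcribe genes of many other organs and show the resulting peptides to developing T cells, so that T cells reactive to those organs can be removed or diverted. Small subsets of mTECs resemble differentiated cells of other tissues, hormone-secreting gut cells among them. In the gut the peptides come from scattered enteroendocrine cells, except guanylin and uroguanylin, which other epithelial cells of the mucosa also make. The Mbd1 protein recognises CpG sites that carry DNA methylation and takes part in gene repression.

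The genotype of each value below is the name of its matrix column, because the scanner files carry other titles. Ranked over probes, 5 of the 6 columns each had the same order as the median spot signal of 1 scanner array. In 0 of these 5 did the titles match, and in 4 the array bears the opposite genotype. No array had the order of KO_1, and no column that of the array titled KO 2. Mbd1, the targeted gene, was low in the KO columns, with 8.83, 8.60 and 9.0 in WT_1 to WT_3 and 5.64, 5.61 and 5.60 in KO_1 to KO_3 on the log2 scale (probe A_51_P143224). The difference was -3.19 (SE 0.19, limma adjusted p = 5.4e-05), and the KO values lay at or near background, which was at most 5.67 per column (95th percentile of the probes never detected). Under the array titles the difference of Mbd1 was 1.59, opposite in sign. Every direction below therefore rests on the column names. Marker genes of mTECs (Epcam, Aire, Fezf2, Krt5, Krt14, Krt8, H2-Aa and others) were above background in all 6 columns in 14 of 14 tested genes. Of the 16 listed, 15 were found on the array, and these 14 had a probe well above background on 3 or more scanner arrays, as testing required. None of the 14 passed the test between genotypes.

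The sequences upstream of the guanylin genes are shown because these 2 genes lie side by side on chromosome 4 and had the 2 most negative differences of the 9. They are set beside that of Sct, which holds the most CpG sites of the 9. Each is the 250 bases before the annotated start, 5′ to 3′ on the gene's strand, from RefSeq (GRCm38.p6), and capitals mark CG, TATAAA and GTTAAT on either strand. Guca2a lies on the plus strand (chr4:119637482-119637731), Guca2b on the minus strand (chr4:119658946-119659195) and Sct on the minus strand (chr7:141279134-141279383).
Guca2a: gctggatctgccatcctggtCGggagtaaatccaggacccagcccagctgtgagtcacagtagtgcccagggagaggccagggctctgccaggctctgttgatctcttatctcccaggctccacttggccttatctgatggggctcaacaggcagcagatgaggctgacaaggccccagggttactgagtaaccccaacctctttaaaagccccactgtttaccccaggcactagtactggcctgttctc
Guca2b: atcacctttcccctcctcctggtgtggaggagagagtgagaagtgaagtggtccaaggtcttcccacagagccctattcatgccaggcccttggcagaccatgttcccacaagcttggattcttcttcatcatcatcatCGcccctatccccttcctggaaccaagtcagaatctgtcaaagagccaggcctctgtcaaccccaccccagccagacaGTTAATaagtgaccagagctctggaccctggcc
Sct: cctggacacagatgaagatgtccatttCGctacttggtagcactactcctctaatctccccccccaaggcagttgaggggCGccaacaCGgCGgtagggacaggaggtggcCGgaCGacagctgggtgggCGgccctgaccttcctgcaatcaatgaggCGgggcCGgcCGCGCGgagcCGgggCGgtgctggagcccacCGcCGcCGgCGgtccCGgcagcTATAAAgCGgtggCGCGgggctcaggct

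Both guanylin sequences hold 1 CG, and that of Sct holds 22, against a median of 6 over 32841 promoter entries of the same length. All 9 genes had an entry. Of them 6 (Gast, Ghrl, Gip, Nts, Guca2a and Guca2b) had at most 2 CG in every entry, Cck had 9, and the 2 entries of Pyy had 5 and 7. GTTAAT, a core motif of the HNF1 factors of gut and liver epithelium, or its reverse complement was found in 6.43% of all entries. Among the members it occurred in Guca2b, with its first base at -33, and at 2 places in Gip. TATAAA, found in either direction in 12.4% of entries, occurred in Sct at -28 and in Gast. No CAAAGTCCA, an HNF4 motif found in 0.384% of entries, and no TTTATG, found in 10.8%, was present in any member. CAGATG, an E-box found in 14.4% of entries, occurred once each in Cck, Sct and Guca2a. These matches describe the letters only, and the sequences were not measured in these cells.

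All 9 genes were expressed above background in the mTECs of both genotypes. Every one of the 12 probes exceeded its column's background level in all 6 columns, by at least 1.5 on the log2 scale except the second Cck probe, which came within 0.04 of it. On the scanner arrays 9 probes were well above background on all 6 arrays, and the second Cck probe on 5. The remaining pair were the Pyy probes, whose spots were set aside as outliers on 2 and 3 arrays. With bulk RNA, fewer cells of a type and less RNA per cell cannot be told apart. Levels of different probes depend on the probe and are not ranked here.

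**Figure D1:**
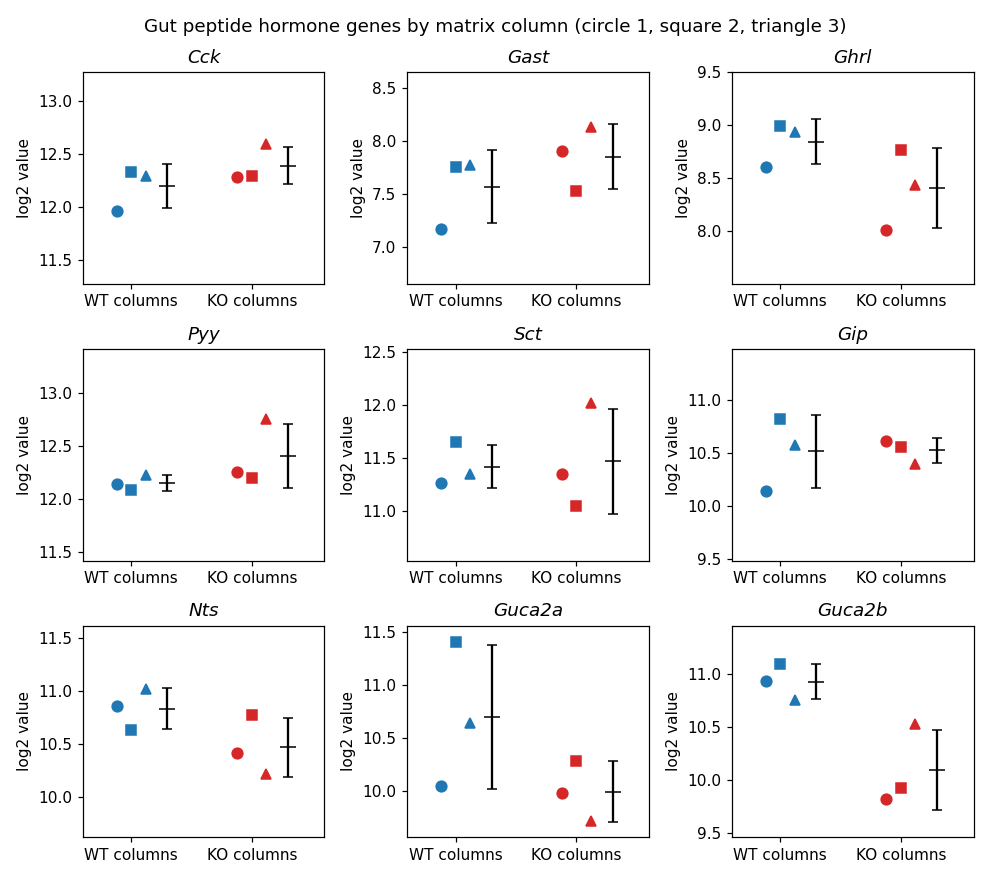
Log2 value of each gut peptide hormone gene (1 panel per gene, its probe of highest mean) in the 3 WT columns (blue) and the 3 KO columns (red), with mean and SD (n = 3) in black; every vertical axis spans 2 log2 units. Guca2b is the gene whose KO values (9.82 to 10.52) all lie below its WT values (10.75 to 11.09), and the groups overlap in the other 8.

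None of the 9 genes passed between the KO and the WT columns in limma's fit over all 21308 genes (threshold 0.05 after Benjamini-Hochberg adjustment), where 0.169% of all genes passed, 33 higher (0.155%) and 3 lower (0.0141%). At an unadjusted p of 0.05, Guca2a and Guca2b were the 2 of 9 under it, both lower, beside 4.31% of all genes in either direction, 1.9% lower and 2.41% higher. The groups did not overlap in 1 of 9, Guca2b, with KO lower, beside 8.39% of all genes, 4.09% with KO lower and 4.3% with KO higher. The median difference of the 9 was 0.01, with 5 positive and 4 negative, and that of all genes was -0.0047. The median size of the difference, whatever its sign, was 0.28 for the 9 and 0.14 for all genes. These 2 medians were not matched for signal level, and the folds of dim probes are shrunk in this matrix.

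Guca2b encodes prouroguanylin, whose peptide activates guanylate cyclase C and so drives chloride and water secretion in the gut. Its log2 values were 10.93, 11.09 and 10.75 in WT_1 to WT_3 and 9.82, 9.93 and 10.52 in KO_1 to KO_3. All KO columns lay below all WT columns, and KO_3 came nearest to them. The means were 10.93 ± 0.17 and 10.09 ± 0.38 (SD, n = 3), a difference of -0.84 (SE 0.23, 95% interval -1.34 to -0.33), which is 0.560 of the WT level. Adjusted over all genes the p was 0.433 and missed the threshold (limma, unadjusted p = 0.0038). The exact permutation test gave 0.1, the smallest p that 3 columns against 3 allow (two-sided). Leaving out 1 column at a time gave differences between -1.05 and -0.70, and the smallest adjusted p among these was 0.122. The authors' deposited table gives -0.84 for this probe, with an FDR of 0.691.

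Guca2a encodes proguanylin, the precursor of the other peptide ligand of guanylate cyclase C. Its log2 values were 10.05, 11.41 and 10.64 in WT_1 to WT_3 and 9.99, 10.29 and 9.72 in KO_1 to KO_3. The groups overlapped, since WT_1 lay below KO_2, and WT_2 stood highest. The SDs were 0.68 and 0.28 (n = 3), and the difference of the means was -0.70 (SE 0.31, 95% interval -1.39 to -0.01, limma adjusted p = 0.999). Guca2a varied most of the 9 over the 6 columns (range 1.69), and its difference was -0.35 without WT_2 and -1.03 without WT_1.

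The arrays lay on 2 slides. WT_1, KO_2 and KO_3 were on one slide and WT_2 and WT_3 on the other, by their matching arrays, and the slide of KO_1 is not known. With the slide as a block over these 5 columns, a fit in which the genotypes are compared through WT_1 alone, Guca2b read -0.71 and Guca2a -0.05. The same fit gave 0.48 for Cck, 0.66 for Gast, 0.33 for Pyy, 0.27 for Sct, 0.33 for Gip, -0.36 for Nts and 0.000605 for Ghrl, with 0 of all genes passing (limma adjusted p; 1425 at an unadjusted p of 0.05). The part of the slide in the Guca2a difference cannot be told apart from that of WT_1 itself.

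The 2 guanylin genes are neighbours, with 21213 bases between their starts in GRCm38.p6 and pointing toward each other. Of the 4 protein-coding genes on each side, 7 of 8 were tested, 0 of them under an unadjusted p of 0.05, with differences from -0.07 for Foxj3 to 0.32 for Rimkla. Hivep3, the next gene beyond Guca2b, read 0.10 (SE 0.25). Gucy2c, which encodes guanylate cyclase C itself, read 8.96, 9.46 and 9.27 in the WT columns and 9.56, 9.80 and 9.39 in the KO columns, a difference of 0.35 (SE 0.21, limma adjusted p = 0.999).

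**Figure D2:**
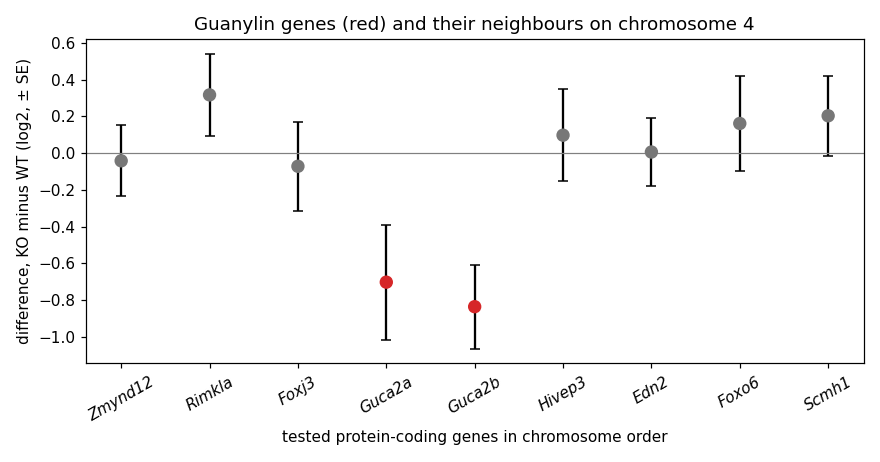
Difference KO minus WT (log2, bars ± SE, limma over 3 against 3 columns) of the guanylin genes (red) and the tested protein-coding genes around them (grey), in chromosome order with equal spacing. Guca2a (-0.70) and Guca2b (-0.84) lie below the 7 neighbours, which read between -0.07 and 0.32.

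Cck encodes cholecystokinin, which releases bile and pancreatic enzymes after a meal, and Gast encodes gastrin, which drives gastric acid secretion. The 2 peptides share their active C-terminal end and the receptor encoded by Cckbr. Cck read 11.96, 12.34 and 12.30 in WT_1 to WT_3 and 12.28, 12.30 and 12.59 in KO_1 to KO_3, with WT_1 lowest and KO_3 highest. The difference was 0.19 (SE 0.20, 95% interval -0.25 to 0.63), or 0.075 without WT_1, 0.092 without KO_3 and 0.26 without WT_2. Its second probe, near background, read -0.02. Gast read 7.17, 7.76 and 7.78 in the WT columns and 7.90, 7.52 and 8.13 in the KO columns, a difference of 0.28 (SE 0.24, 95% interval -0.24 to 0.81). Here too WT_1 was lowest and KO_3 highest, and the difference was 0.086 without WT_1, 0.14 without KO_3 and 0.45 without KO_2. Cckar and Cckbr, the receptors, read 0.17 and -0.16.

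Ghrl encodes ghrelin, the stomach peptide that raises appetite and growth hormone release. Its probe of highest mean read 8.60, 9.0 and 8.94 in WT_1 to WT_3 and 8.01, 8.77 and 8.44 in KO_1 to KO_3, and the groups overlapped at WT_1 and KO_2. The difference was -0.44 (SE 0.23, 95% interval -0.95 to 0.07, limma adjusted p = 0.999), or -0.24 without KO_1 and -0.62 without KO_2. The other Ghrl probe gave -0.43, with 7.42, 8.04 and 7.84 in the WT columns and 7.25, 7.49 and 7.26 in the KO columns. Ghsr, the ghrelin receptor gene, read 0.16.

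Pyy encodes peptide YY, released from the distal gut, which slows gastric emptying and reduces food intake. The probe of highest mean read 12.14, 12.08 and 12.22 in WT_1 to WT_3 and 12.26, 12.20 and 12.75 in KO_1 to KO_3. The WT columns lay close together (SD 0.07, n = 3), KO_3 was highest, and KO_2 lay below WT_3. The difference was 0.25 (SE 0.21), or 0.08 without KO_3 and 0.35 without KO_2. The spots of this probe were marked as outliers on the arrays that equal KO_2 and KO_3, a mark the matrix does not carry. The second Pyy probe read 11.95, 12.20 and 12.07 in the WT and 12.04, 12.25 and 11.82 in the KO columns, where KO_3 was lowest, and its difference was -0.04. The probes thus disagreed in KO_3.

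Sct encodes secretin, which makes the pancreas secrete bicarbonate, and Gip encodes the incretin that raises insulin release after a meal. Sct read 11.27, 11.65 and 11.35 in WT_1 to WT_3 and 11.35, 11.05 and 12.02 in KO_1 to KO_3. The KO columns held both its lowest and its highest value, and the difference was 0.05 (SE 0.26, 95% interval -0.52 to 0.62). Gip read 10.14, 10.82 and 10.57 in the WT columns and 10.61, 10.55 and 10.39 in the KO columns, with both extremes among the WT columns. Its difference was 0.01 (SE 0.22, 95% interval -0.47 to 0.49), so a change beyond 1.40-fold either way lay outside the interval.

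Nts encodes neurotensin, a peptide of the ileum and the brain that slows gut motility and aids fat absorption. It read 10.86, 10.63 and 11.02 in WT_1 to WT_3 and 10.41, 10.77 and 10.22 in KO_1 to KO_3, and WT_2 lay below KO_2. The difference was -0.37 (SE 0.21, 95% interval -0.83 to 0.10, limma adjusted p = 0.999), or -0.24 without KO_3 and -0.52 without KO_2. Its receptor genes Ntsr1 and Ntsr2 read 0.21 and 0.09, and Sort1, which encodes sortilin, -0.21.

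**Figure D3:**
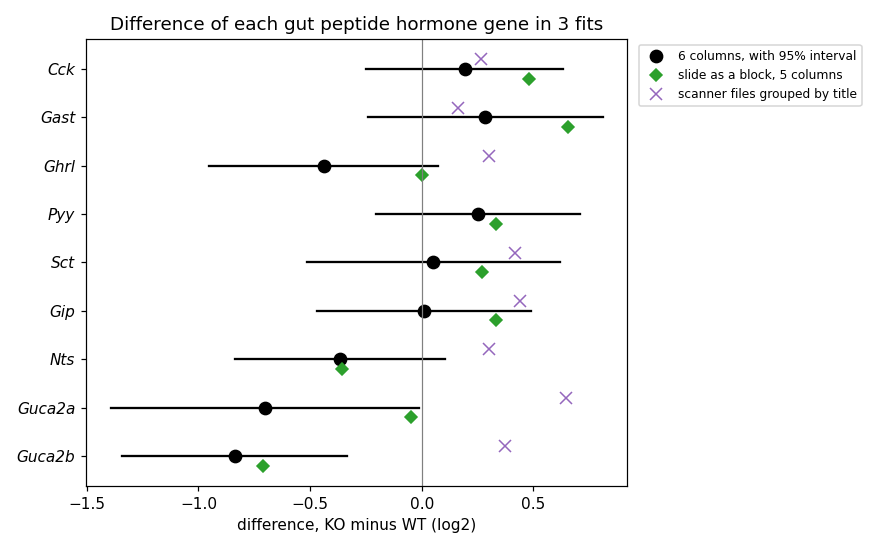
Difference KO minus WT (log2) of each gut peptide hormone gene in the fit over 6 matrix columns (black, with 95% interval), with the slide as a block over 5 columns (green) and with the scanner files grouped by their titles (purple; Pyy had too few unmarked spots). Guca2b read -0.84, -0.71 and 0.37 in the 3 fits, and Guca2a -0.70, -0.05 and 0.64.

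The intervals of 7 of the 9 genes lay within 2-fold in both directions, and those of Guca2a and Guca2b extended beyond it on the lower side. With 9 genes over 6 columns, some column must hold an extreme more than once, and the extremes fell as follows. KO_3 held the highest value of 4 genes (Cck, Gast, Pyy and Sct) and the lowest of Guca2a and Nts, WT_2 held the highest of 4 (Ghrl, Gip, Guca2a and Guca2b), and WT_1 held the lowest of 3 (Cck, Gast and Gip). Among 16476 genes with names other than clone names, those whose values followed Guca2b most closely over the 6 columns were Serpina3k (Pearson's r of 0.990), Ugt2b5 (0.985), Ins1 (0.982), Cftr (0.981) and Inhbe (0.969). For Guca2a they were Fuom (0.994), Tekt5 (0.992), Efcab3 (0.990), Serpina7 (0.988) and Snrpa1 (0.987). These correlations are a description of 6 columns that include the difference between the genotypes, and they were the highest of many.

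Of 18 other peptide hormones of gut, islet and nerve, 1 passed over all genes and it was higher, beside 0.155% of all genes. Cartpt, a neuropeptide precursor found in gut neurons and islets, rose from 8.60, 8.57 and 8.87 in the WT columns to 10.03, 10.11 and 10.21 in the KO columns, by 1.44 (SE 0.19, limma adjusted p = 0.010). That call was lost without WT_2 (adjusted p = 0.107) and with the slide as a block (1.56, adjusted p = 0.336). The islet genes Iapp and Ins2 read -0.60 and -0.69 (limma adjusted p of 0.698 and 0.826). Both had an unadjusted p under 0.05, beside 1.9% of all genes lower. Both were above background in all 6 columns. Iapp was counted as well above background on 3 scanner arrays, a count that leaves out arrays with outlier spots. All KO columns were lower in 4 of the 18 (Adcyap1, Iapp, Ins1 and Ins2), beside 4.09% of all genes, and higher in 1, Cartpt, beside 4.3%. Gcg, whose product the intestine processes to GLP-1, read -0.44, Sst, somatostatin, -0.04, and Insl5, a hormone of the colon, 0.00024. The list had 3 positive and 15 negative members and a median of -0.10.

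No gene of the machinery that makes and stores the hormones passed. Of 18 tested genes of prohormone processing and secretory granules, 0 passed, 7 were positive and 11 negative, and the median was -0.08. Chgb, a granule protein, read -0.71 (SE 0.29), and the convertases Pcsk2 and Pcsk1, which cut prohormones, -0.41 and -0.54 (limma adjusted p of 0.999 each). Chgb was the 1 of the 18 with an unadjusted p under 0.05, beside 1.9% of all genes lower and 2.41% higher. All KO columns were lower in 2 of the 18, Chgb and Pcsk2, beside 4.09% of all genes, and higher in 0, beside 4.3%. Of 20 tested enteroendocrine transcription factors 0 passed, with a median of -0.06. Fev and Lmx1a had the smallest p, at -0.50 and 0.40, and Lmx1a was above background in 3 of the 6 columns. Neurog3, which starts the enteroendocrine fate, read 0.0013 and Insm1, an endocrine zinc finger factor, 0.14. Of the 14 receptor genes of the 9 peptides 10 were tested, 0 passed, and the median was 0.13.

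Among 20 intestinal epithelium markers 0 passed, 14 were negative and 6 positive, the median was -0.15, and 4 had an unadjusted p under 0.05, all lower, beside 1.9% of all genes. Apoc3, an apolipoprotein of liver and intestine, read -1.01, Sis, the brush border sucrase-isomaltase, -1.04, Spink4, a goblet cell product, -0.66, and Apoa4, an apolipoprotein of enterocytes, -0.61 (limma adjusted p between 0.140 and 0.979). The groups did not overlap in these 4, which were named for their low p, nor in Lct, the lactase gene, which was higher in every KO column (0.42), beside 4.09% of all genes with KO lower and 4.3% with KO higher. Fabp1 and Fabp2, fatty acid carriers of enterocytes, read 0.08 and 0.04. Of 9 tested gastric markers 0 passed, with Gkn2, gastrokine 2, at 0.68 and Gkn1 at -0.43 (limma adjusted p of 0.440 and 0.999) and a median of -0.08.

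**Figure D4:**
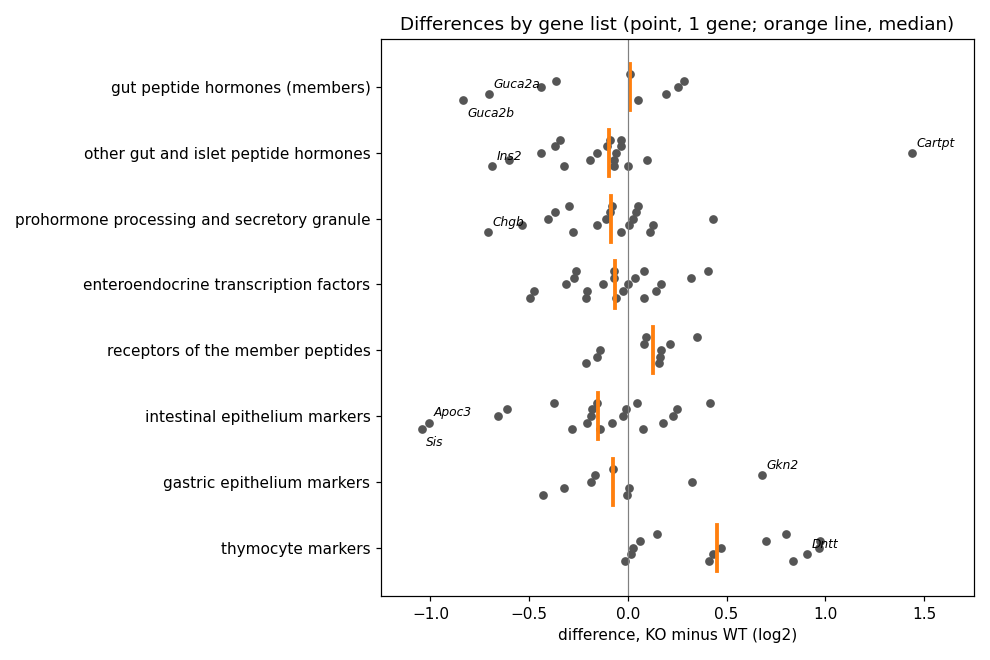
Difference KO minus WT (log2) of every tested gene (points) in 8 gene lists, with the median of each list (orange line); the vertical scatter within a list carries no meaning. The 9 gut peptide hormone genes spread from -0.84 to 0.28, Cartpt stands apart at 1.44, and the thymocyte markers have a median of 0.45.

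Markers of thymocytes had higher summed levels in the KO columns. Of 14 tested thymocyte markers 0 passed over all genes and 13 were positive, with a median of 0.45, and 7 did not overlap, all higher in KO, beside 4.3% of all genes. Cd8b1, Dntt and Cd3e, genes of the T cell lineage, read 0.97, 0.91 and 0.84. The summed linear level of the 14 ran from 3499 to 4655 in the WT columns and from 6010 to 7430 in the KO columns. Of 9 cortical epithelial markers 7 were positive and 2 negative, with a median of 0.24, and 0 passed. In 2 of them, Prss16 (0.52) and Ccl25 (0.43), all KO columns were higher, beside 4.3% of all genes. In 1, Ly75 (-0.27), all were lower, beside 4.09%. Their summed linear level, which is mostly that of Ccl25 and Tbata, ran from 40502 to 45884 in the WT columns and from 50908 to 59803 in the KO columns. The sums of 12 B cell markers (11416 to 13610 in WT, 12546 to 15674 in KO), 13 dendritic cell and macrophage markers (32822 to 36212, 32005 to 35622) and 12 fibroblast and endothelial markers (6707 to 10047, 7191 to 12136) overlapped. Of the 13 dendritic cell and macrophage markers 5 were higher in every KO column, beside 4.3% of all genes, Ccr7 (0.77) and Tyrobp (0.70) among them. In 2, Xcr1 (-0.28) and Lyz2 (-0.27), every KO column was lower, beside 4.09% of all genes, and Mrc1 read -0.65. A marker was tested only if well above background on 3 or more scanner arrays, which Rag2 and Siglech were not. All tested ones were above background in all 6 columns except Itgax and Emcn, each in 5. The part of these cells in the differences of the hormone genes was not tested.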

How the data were processed

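Per the file headers, the deposited scanner files hold intensity values made with Agilent Feature Extraction 10.7.3.1 (10.6 per the submitters' processing notes), background-subtracted within the array. The authors' deposited matrix holds log2 values in 6 columns with nearly the same quartiles, and how they were normalized is not given in the sources used here. It also holds the authors' log2 ratio, linear fold, unadjusted and adjusted p-values and a log-odds score, of which the ratio and FDR of Guca2b are quoted. Of its columns 5 rank as the median spot signal, local background included, which shrinks the folds of dim probes.

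The filter kept 32235 of 41174 probes, those that 3 or more scanner arrays showed well above background. An array on which a probe had only outlier spots counted as not showing it, also in the shares per array. Each gene was read from the kept probe with the highest mean, and each unnamed probe stood for itself. Probes were named through Entrez ID (33380), accession (53) or the files' symbol (2201). Columns were compared in R 4.3.3 with limma 3.58.1 (lmFit, then eBayes), checked on simulated data, with Benjamini-Hochberg adjustment over all genes. Values of second probes come from the same fit over all kept probes. Arrays showed 72.6% to 79.4% of probes well above background, and their number limits the precision. P-values weigh each difference only against the spread between these samples, moderated over all genes by limma, and that spread may be technical. Named were Mbd1, all 9 members, and in each list the passing genes or those of smallest p, beside others named as context after their values were seen, and 1 gene that the rule names is not reported here; likeness was computed for Guca2a and Guca2b. The members and lists were chosen with earlier results of these data known. Alternatives changed the filter, probe rule, moderation, scaling, source file, blocks and columns.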

Additional observations from a re-analysis of the deposited data

How the results depend on the processing

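None of the 9 hormone genes passed under any of 150 alternative values (limma). Read from the probe of highest mean or the mean over kept probes, Cck, Gast and Pyy stayed positive in every alternative that gave a value. For Cck and Gast these include the scanner files by title, which group the arrays otherwise. The second probes of Cck and Pyy, fitted on their own, read -0.02 and -0.04. Pyy had no value with detection on all 6 arrays or from the scanner files. The count of passing genes, 36, was 19 with no filter, 57 with every kept probe fitted, 62 with a replicate block, and 0 from the scanner files by title (processed signal, 903 at an unadjusted p of 0.05; normexp with quantile, 645) and with the slide as a block (1425). Without 1 replicate it ran from 17 (without WT_2) to 56 (without KO_3). Same-numbered columns did not deviate together (correlations of -0.28, -0.17 and -0.33). The slide was not removed from these correlations, so they cannot decide whether the numbers pair the columns. A replicate block, which leaves every difference as it is in this design, took the limma adjusted p of Guca2b from 0.433 to 0.795. Signs turned with the scanner files by title, processed signal first and normexp second: Ghrl 0.30 and 0.16, Nts 0.30 and 0.25, Guca2a 0.64 and 0.58, Guca2b 0.37 and 0.28, Cartpt -0.37 and -0.39, Mbd1 1.59 and 0.85. Gast kept its sign at 0.019 under normexp. Ghrl read 0.000605 with the slide as a block. The calls of Mbd1 (-3.22) and Cartpt (1.56) were lost there, and that of Cartpt without WT_2 (1.38). With detection on all 6 arrays Mbd1 was read from another probe (-0.98) and missed the threshold. Leaving out 1 replicate, Sct ran from -0.22 to 0.26 (-0.03 without WT_1) and Gip from -0.18 to 0.16 (-0.04 without KO_1, -0.01 without KO_2). In the scanner files by title, 4 of the 5 matching arrays bear the genotype opposite to that of their column. Those fits thus compare other groups of arrays. The cause of the turns was not tested.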
